A study of Homo sapiens with 12 samples.

Results

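Untreated PLC/PRF/5 cells were compared with untreated HLF cells across all genes. The comparison takes the libraries whose treatment label is control, 2 for each line, which are 4 of the 12 samples of the series. The other 8 are 2 controls of a further line, SNU475, and 2 libraries of each line kept in 20 mM lactate for 24 h, and they entered the fit to help estimate the spread. HLF and PLC/PRF/5 are both established human hepatocellular carcinoma lines, and the study as titled concerns glycolysis and a lactyl mark on histone H4 in this cancer. No genetic change, vector or agent is given for the control groups. Each side of the comparison is a single cancer line, so a difference between them is a difference between these lines and not between classes of tumour. Both were profiled from total RNA with a library kit that keeps strand. Nothing in the labels ties the replicate libraries to separate cultures, so p-values measure only the spread between these samples, which may be technical.

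The hepatocyte is an epithelial cell that secretes most plasma proteins and holds the enzymes of the urea cycle, bile acid and drug metabolism. A network of liver-enriched transcription factors, among them HNF4A and the FOXA proteins, keeps these genes on. Liver cancer cells can retain this state or lose it, and loss often comes with features of epithelial-mesenchymal transition (EMT), in which cadherin switching, vimentin filaments and matrix-degrading enzymes replace cell junctions. PLC/PRF/5 is known as an epithelial line that carries integrated hepatitis B virus DNA, and HLF as a poorly differentiated, mesenchymal one.

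Library totals lay between 16533437 and 21781924 expected counts. Replicates correlated across genes at 0.981 in HLF and 0.988 in PLC/PRF/5, against 0.774 to 0.79 between lines. The 2 HLF libraries stood further apart, with 9.52% and 3.39% of their counts on mitochondrially encoded genes, compared with 7.08% and 6.3% in PLC/PRF/5. Levels below are CPM, counts relative to the scaled size of each library, and differences are log2 fold changes, PLC/PRF/5 minus HLF, with their standard error (SE). Of 18355 genes tested, 7888 (43.0%) passed an adjusted p of 0.05 in edgeR's quasi-likelihood test with Benjamini-Hochberg adjustment. They were split almost evenly, with 3986 (21.7%) higher and 3902 (21.3%) lower in PLC/PRF/5. A difference of at least 4-fold was called for 3986 genes (21.7%), 2194 (12%) higher and 1792 (9.76%) lower. For 13918 genes (75.8%) the libraries of the lines did not overlap. These shares are the background for every list below, since a list near them does not stand apart. With a line at 0 counts, a fold is given as a lower bound against 3 counts over its 2 libraries. With 1 to 3 counts the ratio is given with its 95% counting interval, which covers counting error only. "Called" below means this test at this threshold.

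**Figure D1:**
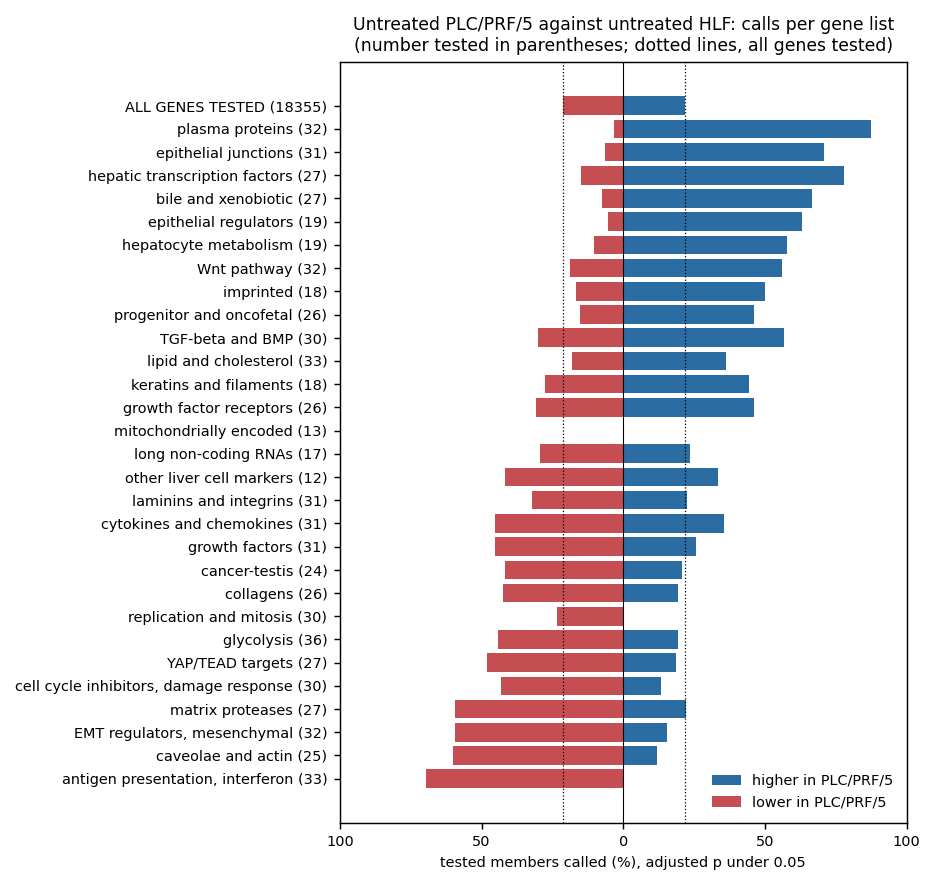
Share of tested members called higher (blue, to the right) or lower (red, to the left) in untreated PLC/PRF/5 than in untreated HLF for 29 gene lists, in percent, with all genes tested in the top row and as dotted lines at 21.7% and 21.3%. Plasma proteins reached 87.5% higher, and antigen presentation and interferon genes 69.7% lower.

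Genes for plasma proteins were nearly all higher in PLC/PRF/5. Of 38 listed, 32 were tested, 28 were higher, 1 was lower and 3 were not called, with a median log2 fold change of 8.94, or 7.26 with genes at 0 counts held at their bound, beside 0.0 for all genes tested. In HLF 12 of the tested genes had 0 counts. Before the values, the stretches just upstream of the RefSeq gene starts are shown, because 6 of 23 members with a RefSeq promoter window (26.1%) held the letters GTTAAT, on either strand, in the 250 bases before the start. These letters recur in promoters of liver genes. Of 35116 RefSeq windows of that length, 6.23% held them. The 6 were ALB, AFP, APOH, FGA, FGB and F2, all higher in PLC/PRF/5. So were 19 of all 23 members with a window, so the direction does not set the 6 apart. Below are the 120 bases before the start (GRCh38.p14, gene strand), with the match in capitals. They lie at chr4:73404167-73404286 on the plus strand for ALB, chr4:154590743-154590862 on the minus strand for FGA, chr4:154562860-154562979 on the plus strand for FGB and chr17:66229416-66229535 on the minus strand for APOH.
ALB: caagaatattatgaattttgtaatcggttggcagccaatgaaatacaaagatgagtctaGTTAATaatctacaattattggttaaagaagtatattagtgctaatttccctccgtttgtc
FGA: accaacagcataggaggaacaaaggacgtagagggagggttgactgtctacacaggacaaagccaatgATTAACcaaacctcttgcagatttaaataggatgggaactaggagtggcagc
FGB: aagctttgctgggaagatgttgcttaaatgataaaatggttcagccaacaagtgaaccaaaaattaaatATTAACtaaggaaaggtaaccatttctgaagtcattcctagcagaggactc
APOH: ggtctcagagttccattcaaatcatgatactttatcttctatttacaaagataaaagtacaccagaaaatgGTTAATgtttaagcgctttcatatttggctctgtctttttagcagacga
Counted back from the start, the matches begin at base -61 in ALB, -52 in FGA, -51 in FGB and -49 in APOH. A match is a description of letters, and binding was not measured.

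ALB, the gene of serum albumin (ENSG00000163631, chromosome 4 at 73397114 to 73421412, GRCh38 in GENCODE 29), had 0 counts in both HLF libraries and 27.1 and 67.5 CPM in PLC/PRF/5. It was at least 616-fold higher in PLC/PRF/5 (adjusted p = 3.15e-05). AFP, its fetal relative and neighbour on chromosome 4 (73431138 to 73456174) and a clinical marker of liver cancer, had 0.0994 and 0 CPM in HLF and 1760 and 2940 CPM in PLC/PRF/5. With 2 counts in HLF the ratio was 46700 (counting interval 12900 to 385000). AFP was thus far more abundant than ALB in PLC/PRF/5, also per length, at 1760 and 3100 TPM (the deposited level scaled by transcript length and library) against 19.6 and 63.2. APOB, the structural protein of very low density lipoprotein, was at 0 counts in HLF and at 659 and 622 CPM in PLC/PRF/5, at least 8350-fold higher. The fibrinogen chains FGA (0.149 and 0.105 CPM in HLF, 850 and 984 in PLC/PRF/5, log2 fold change 12.74 ± 0.85) and FGB (3.33 and 7.48, then 603 and 786, 7.01 ± 0.64) followed. Both are secreted as parts of the clotting protein.

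Other secreted proteins were also present in HLF. C3, the central complement component, was at 60.6 and 53.2 CPM in HLF and 2080 and 1640 in PLC/PRF/5 (5.03 ± 0.79, adjusted p = 0.000369). SERPINA1, which encodes alpha-1 antitrypsin, was at 6.81 and 4.11 CPM in HLF and 240 and 365 in PLC/PRF/5 (5.79 ± 0.53). Some classical products stayed low in both lines. TTR, the carrier of thyroid hormone, was at 0 counts in HLF and only 1.8 and 2.99 CPM in PLC/PRF/5, and APOA1, the main protein of high density lipoprotein, at 0 counts and 3.55 and 8.46 CPM. APOA1 was called here (adjusted p = 0.00118) but not by DESeq2. In DESeq2, 24 of the 32 tested plasma protein genes were called higher, against 28 here. HP, PLG, SERPINC1 and the inter-alpha-trypsin inhibitor genes ITIH1, ITIH3 and ITIH4 were too low to be tested. The gene that ran the other way was CFB, complement factor B, at 3.83 and 6.17 CPM in HLF and 0.282 and 0.547 in PLC/PRF/5 (-3.55 ± 0.98, adjusted p = 0.0126). Its call was lost without HLF control 2 or either PLC/PRF/5 control (adjusted p up to 0.0854).

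The liver-enriched transcription factors differed in the same direction. Of 27 tested, 21 were higher, 4 lower and 2 not called (median 2.62, or 2.46 with zeros at the bound). HNF4A, a nuclear receptor that acts as master regulator of the hepatocyte (chromosome 20 at 44355700 to 44434596), had 0 counts in HLF and 147 and 169 CPM in PLC/PRF/5, at least 2060-fold higher. PROX1, needed for hepatocyte migration out of the liver bud, had 0 counts against 88 and 77 CPM, at least 1080-fold higher. The forkhead pioneer factor FOXA1 was at 0.248 and 0.105 CPM in HLF and 76.2 and 83.9 in PLC/PRF/5 (8.76 ± 0.86, adjusted p = 1.01e-05). CEBPA, a bZIP factor of mature hepatocytes, was at 0.845 and 0.527 against 20.4 and 23.3 CPM (4.98 ± 0.37).

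Not every factor of the liver programme was missing from HLF. FOXA2 was present in both lines, at 5.37 and 4.95 CPM in HLF and 22.4 and 21.7 in PLC/PRF/5 (2.09 ± 0.6, adjusted p = 0.0143), a call lost when any of the 4 untreated libraries was left out (adjusted p up to 0.0861). The 4 members that were lower in PLC/PRF/5 were CEBPB, NR2F1, GATA6 and NR1H4. CEBPB, the bZIP factor of the acute phase response, was at 249 and 220 CPM in HLF and 74.1 and 60.3 in PLC/PRF/5 (-1.8 ± 0.29). The related zinc finger genes GATA4 and GATA6 ran in opposite directions. GATA4 was at 4.27 and 6.53 CPM in HLF and 75.7 and 73.7 in PLC/PRF/5 (3.79 ± 0.31), while GATA6 was at 15 and 15.4 against 0.338 and 0.249 CPM (-5.67 ± 0.56, adjusted p = 1.09e-05).

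Of 31 listed metabolic genes of the hepatocyte, 19 were tested and the others were too low. Among them 11 were higher in PLC/PRF/5, 2 lower and 6 not called (median 2.97). OTC and ARG1 of the urea cycle, FBP1 of glucose synthesis and HAMP, the iron hormone hepcidin, were among the 12 too low to test. CPS1, which starts the urea cycle, was at 0.497 and 0.527 CPM in HLF and 389 and 375 in PLC/PRF/5 (9.53 ± 0.32, adjusted p = 1.35e-08). ASS1, which joins citrulline to aspartate in the same cycle, was at 0.547 and 0.158 against 259 and 302 CPM (9.59 ± 0.61). The libraries of the lines were well apart for both. TDO2, which opens the ring of tryptophan, ran the other way, at 9.99 and 3.11 CPM in HLF and 0.113 and 0.299 in PLC/PRF/5 (-4.93 ± 0.73).

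Of 27 tested genes for bile and xenobiotic handling, 18 were higher, 2 lower and 7 not called (median 2.89, or 2.03 with zeros at the bound). The member of highest CPM in PLC/PRF/5 was ALDH1A1, a cytosolic aldehyde dehydrogenase that makes retinoic acid, at 18.4 and 19.1 CPM in HLF and 2190 and 3020 in PLC/PRF/5 (7.12 ± 0.63, adjusted p = 4.52e-06). AKR1B10, an aldo-keto reductase often raised in liver cancer, was at 0.0497 and 0 CPM against 68.4 and 98.5 CPM. With 1 count in HLF the ratio was 3300 (counting interval 592 to 130000). ABCB1, the drug efflux pump P-glycoprotein, was at 2.24 and 2.06 CPM in HLF and 87 and 73.3 in PLC/PRF/5 (5.22 ± 0.3). CYP1B1, a cytochrome P450 mostly made outside the liver, was 1 of the 2 lower genes, at 418 and 359 CPM in HLF and 0.62 and 0.597 in PLC/PRF/5 (-9.3 ± 0.4, adjusted p = 3.29e-08). The cytochromes CYP3A4, CYP7A1 and CYP8B1 and the bile salt carriers SLC10A1 and ABCB11 were too low in both lines to be tested.

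**Figure D2:**
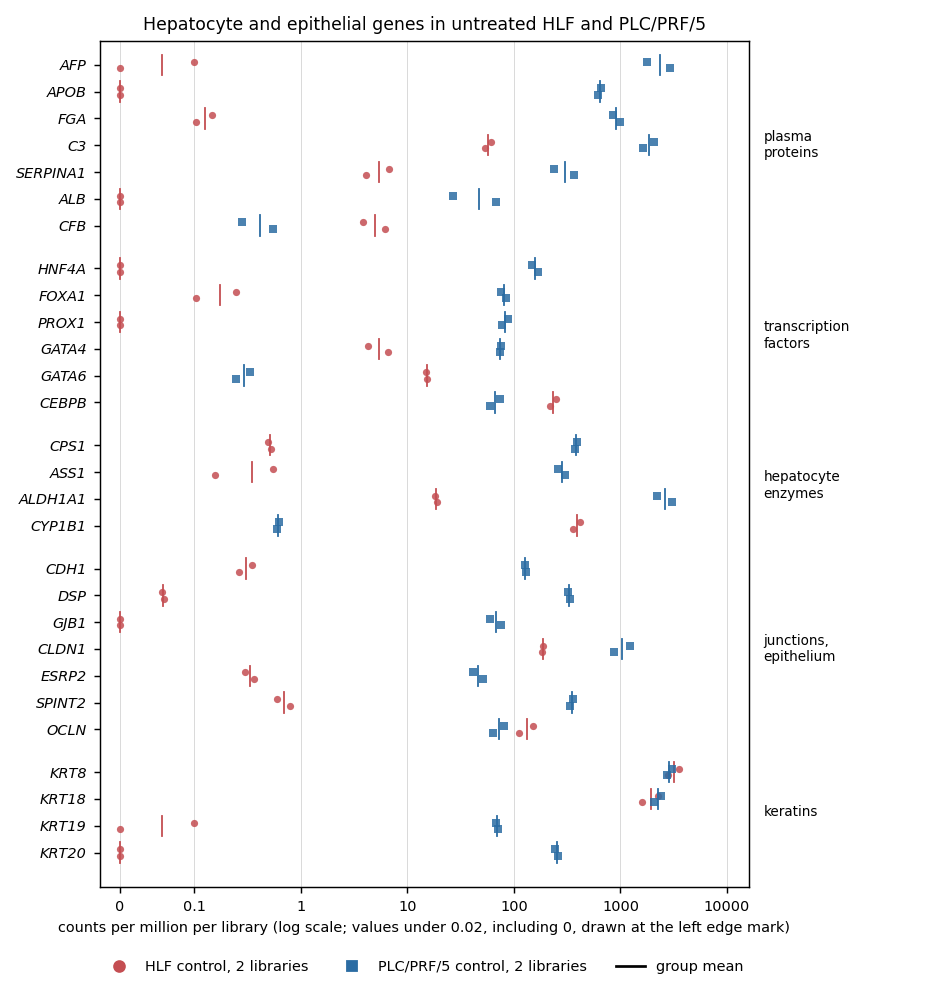
Level in CPM in each untreated library for 28 hepatocyte and epithelial genes, on a log axis with values under 0.02, including 0, drawn at the left mark; circles are the 2 HLF and squares the 2 PLC/PRF/5 libraries, and vertical bars are group means. HNF4A and PROX1 sit at 0 in HLF, while KRT8 and KRT18 overlap between the lines.

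Genes of epithelial junctions were higher in PLC/PRF/5, most of them by less than the hepatocyte genes. Of 31 tested, 22 were higher, 2 lower and 7 not called (median 1.2). CDH1, which encodes the adhesion protein E-cadherin (chromosome 16 at 68737225 to 68835548), was at 0.348 and 0.263 CPM in HLF and 126 and 129 in PLC/PRF/5 (8.67 ± 1.09, adjusted p = 6.98e-05). DSP, desmoplakin, which anchors keratin filaments to desmosomes, had 2 counts in HLF and 323 and 335 CPM in PLC/PRF/5, a ratio of 6440 (counting interval 1780 to 53100). GJB1, the gap junction protein of hepatocytes, had 0 counts against 59.4 and 75.4 CPM, at least 878-fold higher. CLDN1, a tight junction claudin, was present in both lines, at 188 and 185 CPM in HLF and 1220 and 868 in PLC/PRF/5 (2.48 ± 0.45). The 2 lower genes were PKP3, a desmosomal plakophilin (20.2 and 26.1 against 4.12 and 4.73 CPM, -2.39 ± 0.52), and OCLN, the tight junction protein occludin (152 and 112 against 80.8 and 64 CPM, -0.87 ± 0.31, adjusted p = 0.0384). The OCLN call was lost in 7 of the 8 fits that left out a single library of these lines (adjusted p up to 0.255), namely all but the one without HLF control 2.

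The letters CACCTG, the E-box that SNAI and ZEB repressors of junction genes bind, are shown for these promoters because CRB3 held 5 of them within 250 bases. On either strand, 8 of 22 members with a window (36.4%) held the letters, compared with 17.5% of all windows. They were not confined to genes higher in PLC/PRF/5, since OCLN was lower and PATJ and SDC1 were not called. The last 120 bases before the start (GRCh38.p14) lie at chr19:6464151-6464270 for CRB3 and chr5:69492427-69492546 for OCLN, both on the plus strand.
CRB3: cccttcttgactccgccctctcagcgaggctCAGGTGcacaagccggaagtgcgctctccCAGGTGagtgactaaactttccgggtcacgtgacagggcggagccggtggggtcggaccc
OCLN: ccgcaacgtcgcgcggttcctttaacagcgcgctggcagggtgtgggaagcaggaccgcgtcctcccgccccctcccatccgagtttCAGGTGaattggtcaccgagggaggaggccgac
Capitals mark the E-box, which reads CAGGTG on the other strand. CRB3, a crumbs protein that sets apical polarity, had 3 counts in HLF and 27.5 and 26.2 CPM in PLC/PRF/5, a ratio of 349 (counting interval 119 to 1700).

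Regulators and partners of the epithelial state were mostly higher in PLC/PRF/5. Of 19 tested, 12 were higher, 1 lower and 6 not called (median 4.36, or 3.16 with zeros at the bound). ESRP2, a splicing factor that keeps epithelial isoforms, was at 0.298 and 0.369 CPM in HLF and 41.4 and 51.6 in PLC/PRF/5 (7.1 ± 0.4, adjusted p = 2.04e-07). SPINT2, an inhibitor of membrane serine proteases, was at 0.596 and 0.79 against 362 and 333 CPM (8.96 ± 0.3). Some textbook markers of epithelium did not mark PLC/PRF/5. GRHL2 was too low to be tested in this line pair. EPCAM was at 0.398 and 0 CPM in HLF and 0.0564 and 0.0995 in PLC/PRF/5, and ESRP1 at 0.248 and 0 against 0.0564 and 0. Neither was called.

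KRT8 and KRT18, a keratin pair of simple epithelium, did not separate the lines, while other keratins did. KRT8 was at 3540 and 2820 CPM in HLF and 3020 and 2710 in PLC/PRF/5 (-0.15 ± 0.28, adjusted p = 0.704), and its filament partner KRT18 at 2230 and 1610 against 2420 and 2050 (0.22 ± 0.25, adjusted p = 0.517). The libraries of the lines overlapped for both. KRT20, a keratin of intestinal epithelium, had 0 counts in HLF and 245 and 259 CPM in PLC/PRF/5, at least 3280-fold higher. KRT19, a keratin of bile duct and progenitor cells, had 2 counts against 67.3 and 71.3 CPM, a ratio of 1360 (counting interval 375 to 11200). Of 18 tested keratin and filament genes, 8 were higher, 5 lower and 5 not called. The lower count was 3 without PLC/PRF/5 control 2, and the median of 0.38 was 2.01 without HLF control 1 and 0.59 without PLC/PRF/5 control 2. The nuclear lamin gene LMNA was lower, at 1890 and 1710 CPM in HLF and 287 and 291 in PLC/PRF/5 (-2.64 ± 0.2, adjusted p = 1.55e-06).

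Progenitor and oncofetal genes were mixed. Of 26 tested, 12 were higher, 4 lower and 10 not called (median 1.4, or 0.96 with zeros at the bound). The median was 2.45 without HLF control 1 and 0.87 without PLC/PRF/5 control 1. GPC3, a heparan sulfate proteoglycan used in the diagnosis of liver cancer, had 0 counts in HLF and 50.5 and 89 CPM in PLC/PRF/5, at least 909-fold higher. CD44, the hyaluronan receptor, ran the other way, at 2450 and 1860 CPM in HLF and 12.4 and 8.86 in PLC/PRF/5 (-7.66 ± 0.44, adjusted p = 2.25e-07). HMGA2, an oncofetal chromatin protein, was at 918 and 1150 against 183 and 149 CPM (-2.63 ± 0.27), so this list held strong members on each side.

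Genes of EMT and the mesenchymal state were mostly lower in PLC/PRF/5. Of 32 tested, 19 were lower, 5 higher and 8 not called (median -1.94, or -1.54 with zeros at the bound). The median was -1.1 without HLF control 1. VIM, which encodes the filament protein vimentin (chromosome 10 at 17228259 to 17237593), was at 6780 and 4750 CPM in HLF and 517 and 368 in PLC/PRF/5 (-3.7 ± 0.33, adjusted p = 4.43e-06). It was lower by this much yet far from absent. CDH2, N-cadherin, was likewise present in both, at 416 and 436 against 103 and 88.7 CPM (-2.15 ± 0.19). SPARC, a secreted protein that binds collagen, was at 2290 and 1630 CPM in HLF and 6.65 and 5.37 in PLC/PRF/5 (-8.35 ± 0.37, adjusted p = 4.29e-08).

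The transcription factors that drive EMT did not all differ. TWIST1, a basic helix-loop-helix repressor of E-cadherin, was at 16.6 and 15.9 CPM in HLF and had 3 counts in PLC/PRF/5, a ratio of 205 (counting interval 70 to 999). FOXC2, a forkhead factor of mesenchyme, was at 24 and 30.9 CPM in HLF and 0 counts in PLC/PRF/5, at least 346-fold lower. ZEB2 (23.2 and 36.4 against 3.04 and 2.39 CPM, -3.46 ± 0.3) and SNAI1 (26.3 and 17.5 against 3.21 and 2.79 CPM, -2.87 ± 0.56) were lower too, both being zinc finger repressors of junction genes. ZEB1, the close relative of ZEB2, was at 15.3 and 24.6 CPM in HLF and 15.3 and 12.2 in PLC/PRF/5, with overlapping libraries and no call (-0.54 ± 0.4, adjusted p = 0.314).

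The 5 list members higher in PLC/PRF/5 were FN1, CALD1, FOXC1, TCF12 and TWIST2. FN1, which encodes fibronectin (chromosome 2 at 215360440 to 215436172) and is often read as a mesenchymal marker though hepatocytes secrete the plasma form, was at 242 and 371 CPM in HLF and 2690 and 3450 in PLC/PRF/5 (3.32 ± 0.51, adjusted p = 0.000306). CALD1, the actin-binding protein caldesmon, was at 74 and 75.4 against 211 and 209 CPM (1.49 ± 0.19). TWIST2 was at 0 counts in HLF and below 1 CPM in PLC/PRF/5, at 0.226 and 0.0995, and its call was lost without either HLF control or PLC/PRF/5 control 1 (adjusted p up to 0.105).

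Collagen genes were lower more often than higher, with 11 lower, 5 higher and 10 not called of 26 tested (median -1.27). COL6A2, a chain of the beaded-filament collagen VI, was at 695 and 588 CPM in HLF and 2.82 and 2.89 in PLC/PRF/5 (-7.81 ± 0.26, adjusted p = 1.35e-08), and COL5A1, a fibril-forming chain, at 179 and 176 CPM against 3 counts, a ratio of 2240 (counting interval 767 to 10900). The basement membrane chain COL4A1 was at 337 and 468 against 19.7 and 25.5 CPM (-4.15 ± 0.28). COL1A1 of collagen I was modest in HLF, at 45.3 and 29.3 CPM against 3.1 and 1.79 (-3.94 ± 0.41). COL7A1, which forms anchoring fibrils under epithelia, was higher in PLC/PRF/5, at 5.12 and 3.21 against 63.9 and 23.8 CPM (3.39 ± 0.62).

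Laminins and integrins, which form and bind the basement membrane, ran both ways, with 7 higher, 10 lower and 14 not called of 31 (median -0.16). The median was -0.33 without PLC/PRF/5 control 1 and -0.02 without PLC/PRF/5 control 2, and -0.09 without HLF control 2. ITGA3, the laminin receptor chain alpha 3, was at 1580 and 1400 CPM in HLF and 23.8 and 22.4 in PLC/PRF/5 (-6.01 ± 0.3, adjusted p = 1.15e-07). ITGB4, a chain of the hemidesmosome, was at 17.1 and 17.8 against 256 and 209 CPM (3.74 ± 0.68), and LAMA5, a laminin chain of mature epithelia, at 21.4 and 25.4 against 510 and 429 CPM (4.33 ± 0.69). ITGB1, the common beta chain, was not called, at 1330 and 1740 against 1460 and 1200 CPM.

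Matrix proteolysis held some of the most extreme differences. Of 27 tested genes, 16 were lower in PLC/PRF/5, 6 higher and 5 not called (median -2.49, or -2.27 with zeros at the bound). MMP1, interstitial collagenase (chromosome 11 at 102789920 to 102798160), was at 4800 and 2660 CPM in HLF and 0 and 0.149 in PLC/PRF/5. With 3 counts there, the ratio was 47500 (counting interval 16200 to 230000). PLAU, an activator of plasminogen, was at 717 and 466 CPM in HLF and 5.07 and 1.64 in PLC/PRF/5 (-7.47 ± 0.66). TIMP1, an inhibitor of the metalloproteases, was lower too, at 463 and 204 against 15.6 and 14.7 CPM (-4.46 ± 0.35). The membrane-bound proteases MMP14 (97.5 and 81.3 against 235 and 247 CPM, 1.43 ± 0.21) and MMP15 (27.3 and 18.7 against 164 and 138 CPM, 2.71 ± 0.38) were higher in PLC/PRF/5.

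**Figure D3:**
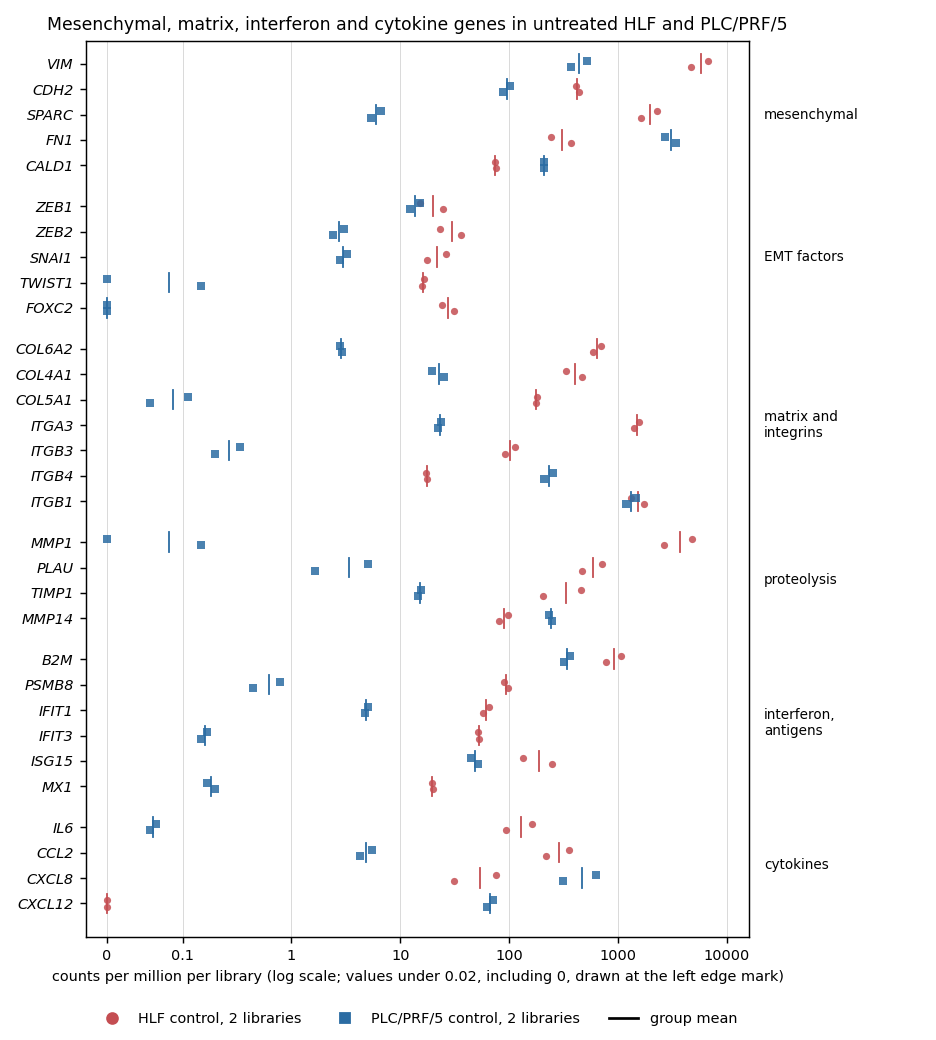
Level in CPM in each untreated library for 31 mesenchymal, matrix, interferon and cytokine genes, on a log axis with values under 0.02, including 0, drawn at the left mark; circles are the 2 HLF and squares the 2 PLC/PRF/5 libraries, and vertical bars are group means. MMP1 spans the widest gap, with 4800 and 2660 CPM in HLF, while ZEB1 and ITGB1 overlap.

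Genes of antigen presentation and the interferon response were lower in PLC/PRF/5, and none was higher. Of 33 tested, 23 were lower and 10 not called (median -2.44). Interferons act through a factor complex that includes STAT2 and IRF9 and binds the interferon-stimulated response element, here the letters GAAANNGAAA on either strand. Of 23 members with a RefSeq promoter window, 14 (60.9%) held this element within 250 bases of the start, compared with 3.02% of all windows. Among them were 11 of the 18 lower genes with a window and 3 of the 5 that were not called. The 120 bases before the start (GRCh38.p14, gene strand) are shown for 4 of the lower genes, with the element in capitals. They lie at chr10:89392503-89392622 for IFIT1, chr1:78620328-78620447 for IFI44L and chr1:1013377-1013496 for ISG15, all on the plus strand, and at chr1:27672193-27672312 on the minus strand for IFI6.
IFIT1: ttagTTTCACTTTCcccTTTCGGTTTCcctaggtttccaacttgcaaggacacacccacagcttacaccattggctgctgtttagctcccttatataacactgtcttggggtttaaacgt
IFI44L: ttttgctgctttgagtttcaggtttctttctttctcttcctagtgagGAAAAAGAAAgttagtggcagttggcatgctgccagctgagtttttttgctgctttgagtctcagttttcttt
ISG15: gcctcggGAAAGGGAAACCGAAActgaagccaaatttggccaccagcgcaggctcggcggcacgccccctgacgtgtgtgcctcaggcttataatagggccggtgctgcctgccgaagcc
IFI6: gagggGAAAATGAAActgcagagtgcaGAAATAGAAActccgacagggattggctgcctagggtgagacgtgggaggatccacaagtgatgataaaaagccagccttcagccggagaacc
IFIT1, IFI6 and ISG15 each hold the element 2 times in this stretch, and in ISG15 the matches overlap.

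IFIT1, which binds viral RNA lacking a methylated cap, was at 65.8 and 57.2 CPM in HLF and 5.02 and 4.73 in PLC/PRF/5 (-3.66 ± 0.41, adjusted p = 3.17e-05). Its neighbour IFIT3 was at 52 and 53.1 against 0.169 and 0.149 CPM (-8.31 ± 0.87). IFI44L was at 23.7 and 32 CPM in HLF and 0 counts in PLC/PRF/5, at least 351-fold lower. IFI6, a mitochondrial protein that restrains apoptosis, was at 361 and 647 against 55.8 and 48.2 CPM (-3.28 ± 0.63). ISG15, a ubiquitin-like protein, was at 134 and 246 against 44.9 and 51.6 CPM (-1.98 ± 0.48), and its call was lost without HLF control 2 or PLC/PRF/5 control 1 (adjusted p up to 0.0589).

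PSMB8, a catalytic subunit of the immunoproteasome that cuts peptides for presentation (chromosome 6 at 32840717 to 32844703), was at 89.3 and 97.6 CPM in HLF and 0.789 and 0.448 in PLC/PRF/5 (-7.24 ± 0.66, adjusted p = 5.41e-06). B2M, the light chain of class I molecules, was at 1070 and 787 against 363 and 323 CPM (-1.43 ± 0.3). HLA-B was lower too (281 and 271 against 12.2 and 7.12 CPM, -4.84 ± 0.65). HLA genes are near-identical and vary between lines, so their counts are uncertain. NLRC5, the transcriptional activator of class I genes, was at 12.7 and 13.2 against 0.62 and 0.697 CPM (-4.28 ± 0.7).

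Cytokine and chemokine genes were split, with 11 higher, 14 lower and 6 not called of 31 tested (median 0.1). The higher count was 7 without HLF control 1 and 5 without HLF control 2, and the median was between -0.25 and -0.08 when any of the 4 untreated libraries was left out. IL6, the inducer of the acute phase response, was at 164 and 93.8 CPM in HLF and had 2 counts in PLC/PRF/5, a ratio of 2460 (counting interval 680 to 20300). CCL2, which attracts monocytes, was at 356 and 217 against 5.47 and 4.23 CPM (-5.89 ± 0.63), and the macrophage growth factor gene CSF1 at 163 and 130 against 9.81 and 6.47 CPM (-4.17 ± 0.25). Some chemokines were higher instead. CXCL8, which attracts neutrophils, was at 76.1 and 31 CPM in HLF and 626 and 312 in PLC/PRF/5 (3.13 ± 0.68, adjusted p = 0.00315), and CXCL5, its relative, at 74.2 and 55.8 against 918 and 565 CPM (3.51 ± 0.52). CXCL12, which attracts lymphocytes, had 0 counts in HLF and 71.5 and 62.5 CPM in PLC/PRF/5, at least 873-fold higher.

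In the TGF-beta and BMP pathway, 17 of 30 tested genes were higher, 9 lower and 4 not called (median 1.1). The ligand TGFB1 was at 539 and 315 CPM in HLF and 56.4 and 47.7 in PLC/PRF/5 (-3.04 ± 0.3, adjusted p = 9.72e-06), while its receptor TGFBR2 was at 69 and 75.8 against 491 and 370 CPM (2.57 ± 0.2). The activin subunits ran in opposite directions. INHBA was at 15.5 and 22.4 CPM in HLF and 0 counts in PLC/PRF/5, at least 239-fold lower, and INHBB at 0 counts in HLF and 92.6 and 57.6 CPM in PLC/PRF/5, at least 978-fold higher. SMAD6, a feedback inhibitor of BMP signalling, was higher (12.7 and 14.8 against 131 and 111 CPM, 3.14 ± 0.35). THBS1, thrombospondin, a secreted activator of latent TGF-beta, was lower (609 and 753 against 36.8 and 17.3 CPM, -4.66 ± 0.56).

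In the Wnt pathway, 18 of 32 tested genes were higher, 6 lower and 8 not called (median 2.22). RNF43, a ligase that removes Wnt receptors and is itself induced by the pathway, had 0 counts in HLF and 73.6 and 69.4 CPM in PLC/PRF/5, at least 932-fold higher. LGR5, a receptor for R-spondins, had 0 counts against 27.7 and 19.6 CPM, at least 308-fold higher. AXIN2, the usual readout of the pathway, was at 0.348 and 0.685 against 5.24 and 3.53 CPM (3.08 ± 0.51). CTNNB1, which encodes beta-catenin, was not called (283 and 292 against 286 and 256 CPM), nor was the scaffold AXIN1 (33.5 and 38 against 32.5 and 38.9). Among the 6 lower genes, the ligand WNT5B was at 191 and 151 CPM in HLF and had 3 counts in PLC/PRF/5, a ratio of 2160 (counting interval 740 to 10500), and the receptor FZD2 at 419 and 268 against 10.1 and 9.41 CPM (-5.14 ± 0.26).

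Growth factor receptors differed in kind, with 12 higher, 8 lower and 6 not called of 26 tested (median 0.87). Without HLF control 2, 8 were higher and 8 lower. FGFR4, the fibroblast growth factor receptor of hepatocytes (chromosome 5 at 177086886 to 177098144), was at 12.7 and 11.4 CPM in HLF and 588 and 604 in PLC/PRF/5 (5.63 ± 0.25, adjusted p = 4.29e-08). Its co-receptor KLB was at 0.199 and 0.211 against 66.6 and 43.1 CPM (8.02 ± 0.5), while FGF19, their ligand, had 0 counts in all 4 libraries. ERBB3, a partner of other ERBB receptors, was at 4.62 and 4.64 against 107 and 175 CPM (4.93 ± 0.4), and EGFR was not called (230 and 283 against 348 and 303 CPM). Receptors lower in PLC/PRF/5 were the TAM receptor AXL (460 and 445 against 87 and 66.1 CPM, -2.57 ± 0.23), the stem cell factor receptor KIT (49.1 and 73.4 against 0.395 and 0.647, -6.85 ± 0.8) and the ephrin receptor EPHB2 (126 and 126 against 0.564 and 0.249, -8.28 ± 0.31).

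Among 31 tested growth factor and binding protein genes, 8 were higher, 14 lower and 9 not called (median -0.61). Without HLF control 1, 5 were higher and the median was -0.2, and it was -0.4 without PLC/PRF/5 control 1. The ligands NRG1, which binds ERBB3 (39.9 and 47.8 CPM in HLF), and FGF5 (85.8 and 123 CPM in HLF) had 0 counts in PLC/PRF/5, at least 553-fold and 1310-fold lower. VEGFC, the lymphatic growth factor, was at 118 and 63.1 CPM against 2 counts, a ratio of 1730 (counting interval 478 to 14300). AREG, an EGFR ligand, was higher in PLC/PRF/5, at 18.8 and 11.1 against 98.4 and 68.3 CPM (2.48 ± 0.37).

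Targets of YAP and TEAD, which read mechanical tension and cell density, were lower in 13, higher in 5 and not called in 9 of 27 tested (median -0.58). The higher count was 0 without HLF control 1 or PLC/PRF/5 control 1, and the median was -0.9 and -0.35 without PLC/PRF/5 control 1 and 2. CCN1 was at 741 and 590 CPM in HLF and 143 and 61.7 in PLC/PRF/5 (-2.7 ± 0.6), and MYOF, a membrane repair protein, at 394 and 621 against 70.6 and 49.9 CPM (-3.07 ± 0.32). CCN2, a widely used target, was not called (46.9 and 39.8 against 150 and 78.9 CPM, adjusted p = 0.0957 here, though called when only the 4 untreated libraries were fitted). YAP1 itself had overlapping libraries, at 118 and 194 against 189 and 166 CPM, and was called only without HLF control 2 (adjusted p = 0.0418).

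Structural genes of caveolae and actin showed a similar tilt, with 15 lower, 3 higher and 7 not called of 25 tested (median -1). CAVIN3, a coat protein of caveolae, was at 95.8 and 80.6 CPM in HLF and 0 counts in PLC/PRF/5, at least 1110-fold lower, and CAV1, the main caveolin, at 513 and 509 against 83.5 and 49 CPM (-2.95 ± 0.41). The non-muscle myosin gene MYH9 was at 3000 and 3710 against 1020 and 833 CPM (-1.86 ± 0.23). VIL1, the microvillus protein villin, was 1 of the 3 that were higher, at 11.3 and 3.58 against 324 and 305 CPM (5.39 ± 0.5).

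Transcripts for several steps of glycolysis, the pathway named in the study's title, were lower in PLC/PRF/5, and pathway activity was not measured. Of 36 tested genes, 16 were lower, 7 higher and 13 not called (median -0.38). Calls of at least 4-fold were nearly balanced, with 6 lower and 5 higher. The median was -0.13 without HLF control 1, and 11 were higher when only the 4 untreated libraries were fitted. At glucose entry the transporters ran in opposite directions. SLC2A1, the widespread glucose transporter, was at 451 and 246 CPM in HLF and 58.2 and 67.8 in PLC/PRF/5 (-2.47 ± 0.31, adjusted p = 7.92e-05), and SLC2A2, the hepatocyte transporter, at 0.298 and 0.0527 against 31.1 and 58.8 CPM (7.93 ± 1.32, adjusted p = 0.000557). HK2, the hexokinase of proliferating cells, was at 59.6 and 72.9 against 2.88 and 7.36 CPM (-3.68 ± 0.51), and HK1 at 162 and 136 against 30.7 and 33.9 CPM (-2.2 ± 0.22). PFKP, the platelet-type phosphofructokinase, was at 641 and 646 against 92.3 and 72 CPM (-2.97 ± 0.26).

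The abundant enzymes further down differed by smaller factors. ALDOA was at 2990 and 2190 CPM in HLF and 1000 and 1100 in PLC/PRF/5 (-1.3 ± 0.26), and ENO1, the main enolase, at 5890 and 4600 against 1730 and 1810 CPM (-1.57 ± 0.22, adjusted p = 0.000157). GAPDH was at 6880 and 5020 against 2630 and 3090 CPM (-1.06 ± 0.25), a call lost without HLF control 1 or PLC/PRF/5 control 1 (adjusted p up to 0.0619). PKM, the pyruvate kinase of most tissues, was not called (3390 and 2670 against 2230 and 2280 CPM, -0.43 ± 0.22, adjusted p = 0.139). PKLR, the liver isoenzyme, had 0 counts in HLF and 9.41 and 17.6 CPM in PLC/PRF/5, at least 176-fold higher (adjusted p = 0.000266, but not called by DESeq2).

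The lactate dehydrogenase subunits ran in opposite directions. LDHA, the subunit that favours lactate production (chromosome 11 at 18394388 to 18408425), was at 3350 and 2510 CPM in HLF and 1200 and 1230 in PLC/PRF/5 (-1.27 ± 0.2, adjusted p = 0.000422). LDHB, which favours pyruvate (chromosome 12 at 21635342 to 21757857), was at 324 and 233 against 838 and 892 CPM (1.64 ± 0.35, adjusted p = 0.00292). Per length, LDHA stood at 2010 and 1900 TPM and LDHB at 329 and 317 TPM in HLF, whereas in PLC/PRF/5 LDHB was the higher of the pair, at 1230 and 1330 TPM against 894 and 950. SLC16A3, the lactate exporter MCT4, was at 255 and 181 CPM in HLF and 8.06 and 11.5 in PLC/PRF/5 (-4.48 ± 0.38), and SLC16A1, the carrier MCT1, at 163 and 158 against 80.7 and 67.5 CPM (-1.12 ± 0.24). PDK4, which shuts off pyruvate dehydrogenase, had 3 counts in HLF and 65.4 and 95.1 CPM in PLC/PRF/5, a ratio of 1060 (counting interval 362 to 5130).

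**Figure D4:**
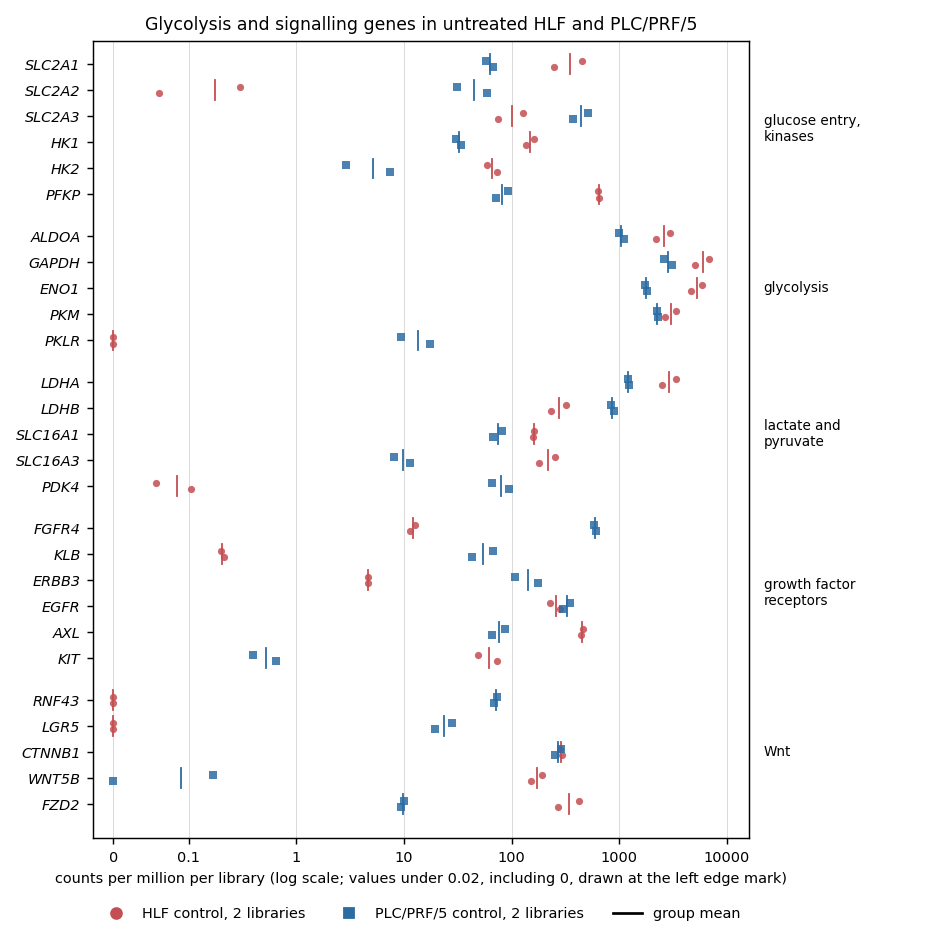
Level in CPM in each untreated library for 27 genes of glycolysis and signalling, on a log axis with values under 0.02, including 0, drawn at the left mark; circles are the 2 HLF and squares the 2 PLC/PRF/5 libraries, and vertical bars are group means. LDHA lies higher in HLF (3350 and 2510 CPM) and LDHB higher in PLC/PRF/5 (838 and 892 CPM), and EGFR and CTNNB1 lie close together.

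Genes of lipid and cholesterol metabolism ran both ways, with 12 higher, 6 lower and 15 not called of 33 tested (median 0.13). The median was 0.03 to 0.08 without either HLF control or PLC/PRF/5 control 2. HMGCS1, an early enzyme of cholesterol synthesis, was at 53.8 and 62.5 CPM in HLF and 492 and 570 in PLC/PRF/5 (3.19 ± 0.39). ACLY, which makes cytosolic acetyl-CoA, was lower (838 and 886 against 208 and 222 CPM, -2 ± 0.19), and ACACA, the next enzyme of fatty acid synthesis, higher (126 and 148 against 507 and 483 CPM, 1.85 ± 0.27). PLIN2, the coat protein of lipid droplets, was at 588 and 344 against 46.7 and 52 CPM (-3.24 ± 0.33).

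Differences were small among replication and mitosis genes. None of the 30 tested was higher, 7 were lower and 23 not called (median -0.37). The count of lower genes was 2 to 4 without HLF control 2 or either PLC/PRF/5 control and 12, with 1 higher, when only the 4 untreated libraries were fitted. PCNA, the sliding clamp, was at 279 and 269 against 158 and 142 CPM (-0.87 ± 0.19, adjusted p = 0.00385), and the helicase subunit MCM2 was not called (179 and 214 against 188 and 169). Of 30 genes of cell cycle inhibition and the damage response, 13 were lower, 4 higher and 13 not called (median -0.53), and the lower count was 7 or 8 without either PLC/PRF/5 control. CDKN1A, the p21 inhibitor, was at 42.5 and 38.8 against 6.43 and 5.13 CPM (-2.82 ± 0.32). FAS, a death receptor, was at 11.4 and 8.11 CPM in HLF and 0 counts in PLC/PRF/5, at least 123-fold lower. CDKN2A (96 and 82.3 against 62.2 and 59.2 CPM, -0.55 ± 0.19) and its chromosomal neighbour MTAP (41.4 and 56.7 against 26.5 and 26.3 CPM, -0.89 ± 0.22) were present in both lines. The CDKN2A call was lost in 6 and the MTAP call in 3 of the 8 fits without a single library, each time including both without a PLC/PRF/5 control (adjusted p up to 0.197 and 0.0674).

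None of the 13 mitochondrially encoded genes was called (median -0.22), and for 1 of them the libraries of the lines did not overlap. For MT-CO1 the 2 HLF libraries bracketed PLC/PRF/5, at 25300 and 8830 CPM in HLF and 15700 and 13500 in PLC/PRF/5. Without HLF control 1, which has the larger mitochondrial share, 1 of the 13 was called and the median was 0.86, while it was -0.78 without HLF control 2 and -0.11 without PLC/PRF/5 control 2.

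Of 18 tested imprinted genes, 9 were higher, 3 lower and 6 not called (median 0.86). The lower count was 1 without HLF control 1 or any PLC/PRF/5 library, and the median was 1.31 without HLF control 1. H19, a fetal non-coding RNA, was at 0.894 and 0.0527 CPM in HLF and 91 and 173 in PLC/PRF/5 (8.07 ± 0.94), while the neighbouring IGF2 was near 1 CPM or below in all 4 libraries and not called. GRB10, an adaptor that damps insulin signalling, was at 0.248 and 0.316 against 48.1 and 41.3 CPM (7.28 ± 0.39). Cancer-testis antigens are germline genes that tumours can switch on. Of 24 tested, 5 were higher (20.8%, beside 21.7% of all genes), 10 lower (41.7%, beside 21.3%) and 9 not called (median -0.39). The median was -0.19 without HLF control 1. MAGEC2 was at 179 and 147 CPM in HLF and 0.564 and 0.448 in PLC/PRF/5 (-8.32 ± 0.79), and MAGEA10 had 0 counts in HLF and 64.7 and 52.4 CPM in PLC/PRF/5, at least 763-fold higher. Genes of these families are near-identical, so their counts are uncertain. Of 17 tested long non-coding RNAs, 4 were higher, 5 lower and 8 not called, and their median of 0.0 was 0.26 without HLF control 1 and 0.14 without PLC/PRF/5 control 2. UCA1, described in several carcinomas (chromosome 19 at 15828206 to 15836326), was at 0.298 and 0.105 CPM in HLF and 977 and 901 in PLC/PRF/5 (12.12 ± 0.4, adjusted p = 1.35e-08).

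Markers of other liver cells were checked against the labelled cell type. Of 24 listed, 12 were too low to be tested, among them the endothelial markers VWF, CDH5 and LYVE1, the macrophage markers CD163 and MARCO, the lymphoid markers CD3E, CD79A and NKG7 and the stellate marker LRAT. PTPRC, the pan-leukocyte marker, had 0 counts in all 4 libraries. Of the 12 tested, 4 were higher, 5 lower and 3 not called (median -1.4). The higher count was 2 without HLF control 2 or PLC/PRF/5 control 1, and the median was -0.77 without HLF control 1. The summed level of all 24 was 183 to 232 CPM in HLF and 1110 to 1170 CPM in PLC/PRF/5, or 177 to 229 and 98.4 to 162 CPM without RELN. The higher genes included LYZ, lysozyme (1 count in HLF, 77 and 135 CPM in PLC/PRF/5, ratio 4210, counting interval 755 to 166000), and RELN, the secreted protein reelin (2.98 and 5.95 against 1010 and 1010 CPM, 7.82 ± 0.4). Those lower in PLC/PRF/5 included some markers of stellate cells and fibroblasts that overlap with the mesenchymal genes above. They were PDGFRB (22.8 and 25.2 against 0.338 and 0.149 CPM, -6.61 ± 0.45) and ACTA2 (2.98 and 2.11 CPM in HLF against 1 count). RELN, also used as a marker of stellate cells, ran the other way, so markers of stellate cells and fibroblasts did not share a direction. DCN, a defining marker of these cells, was at 0.348 and 0.316 CPM in HLF and at 0 counts in PLC/PRF/5. The part of other cells in the differences was not tested. In bulk RNA, fewer cells of a type and less RNA per cell cannot be told apart.

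Ranked by the ratio of group means among protein-coding genes of at least 10 CPM, the 12 largest excesses in PLC/PRF/5 included AFP, A2M, ANPEP, APOB, NTS, FGA, CYBA, DSP, GPX2, MTUS1 and CALB1. A2M, a plasma protease inhibitor, was at 0.248 and 0 CPM in HLF and 937 and 1720 in PLC/PRF/5 (13.28 ± 0.71). ANPEP, an aminopeptidase of the bile canaliculus, had 0 counts against 632 and 859 CPM, at least 9720-fold higher. NTS, the gut peptide neurotensin, was at 0.149 and 0.105 against 967 and 1070 CPM (12.89 ± 0.53), and CALB1, the calcium-binding protein calbindin, had 0 counts against 255 and 309 CPM, at least 3680-fold higher. The 12 largest deficits were MMP1, TNC, S100A6, LTBR, ENG, TENM3, SSX1, WLS, CPA4, CREB3L1, COL5A1 and TUBA3C. TNC, the matrix protein tenascin C, was at 603 and 806 CPM in HLF and 0 counts in PLC/PRF/5, at least 8890-fold lower. S100A6, a calcium-binding protein abundant in many cells, was at 352 and 238 CPM against 0 counts, at least 3720-fold lower. ENG, the TGF-beta co-receptor endoglin, was at 298 and 211 CPM against 0 counts, at least 3210-fold lower, and WLS, which carries Wnt proteins to the cell surface, at 282 and 172 CPM against 2 counts, a ratio of 4330 (counting interval 1200 to 35800).

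Per length, TMSB10, EEF1A1, ACTB, GAPDH and PPIA were among the 10 protein-coding nuclear genes of highest TPM in both lines, and the other 5 differed. VIM (4410 and 4120 TPM) and the metal-binding protein gene MT2A (3820 and 4380 TPM) were among the 10 in HLF, where PLC/PRF/5 had 466 and 342 TPM of VIM and 214 and 142 TPM of MT2A. CLU, the secreted chaperone clusterin (3690 and 4170 TPM), and GSTP1, a glutathione transferase (4110 and 3540 TPM), were among the 10 in PLC/PRF/5, where HLF had 528 and 400 TPM of CLU and 731 and 758 TPM of GSTP1. In the count test the log2 fold change was -4.9 ± 0.49 for MT2A and 2.69 ± 0.43 for CLU.

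The same lines were compared again in the 4 libraries that had received lactate and do not enter the untreated contrast. There 7786 genes (42.4%) were called, 4136 (22.5%) higher and 3650 (19.9%) lower in PLC/PRF/5. Of the 7888 untreated calls, 6556 were called in the same direction, which is 83.1% of the untreated and 84.2% of the lactate calls, and 0 were called in the opposite one. Of the 3986 calls of at least 4-fold, 3648 (91.5%) were called again. Both contrasts come from the same fit and share each gene's estimate of the spread, so the 2 sets of calls are not independent. The test of whether the line difference itself changed with lactate called 0 genes (0%) in edgeR, with 522 (2.84%) at an unadjusted p under 0.05, and 4 in DESeq2 and 44 without the low-count filter. A difference that was not called is not shown to be the same. Among named genes, HNF4A was at 0 counts in both HLF lactate libraries and at 112 and 174 CPM in PLC/PRF/5, and MMP1 at 2820 and 1820 against 0.116 and 0.0506 CPM. LDHA was at 3110 and 3230 against 1200 and 1390 CPM (-1.29 on the log2 scale, adjusted p = 0.000372). CDH1 was at 1.9 and 1.35 CPM in the HLF lactate libraries and at 158 and 209 CPM in PLC/PRF/5. In HLF without lactate it was at 0.348 and 0.263 CPM, and the effect of lactate within HLF was not tested. A change of its line difference with lactate was not called.

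**Figure D5:**
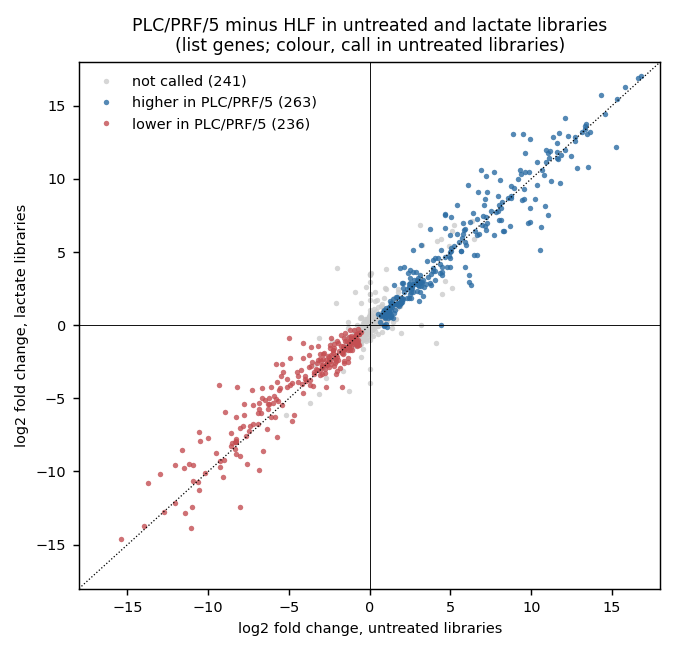
Log2 fold change of PLC/PRF/5 over HLF in the untreated libraries (horizontal) and in the lactate libraries (vertical) for 740 tested list genes, coloured by their call in the untreated libraries; the dotted line marks equal values. Of 499 called genes, 495 had the same sign in both.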

How the data were processed

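Each library came as 1 gene table of RSEM estimates. The expected counts (estimated counts that need not be whole), the TPM values and the effective lengths used in an alternative are as the authors deposited them, per the file headers. Per the submitters' processing notes, the tools were DESeq2, FastQC, RSEM and STAR (versions not given), with GRCm38 and mm10, which are mouse builds, listed. The human build is not given in the sources used here, although all 62757 rows carried human identifiers and 0 mouse ones. For 47 pseudoautosomal genes the Y row was merged into the X row, leaving 62710 genes, and counts were rounded. The filterByExpr rule left 18355 genes. Libraries were scaled by TMM (factors 0.794 to 1.165). With edgeR 4.0.16 in R 4.3.3, the robust quasi-likelihood model was fitted to all 12 libraries as 6 groups, with 6 residual degrees of freedom and a common biological coefficient of variation of 0.26, and p-values were adjusted by Benjamini-Hochberg over all genes tested. On simulated counts it called 8.96% of 67 genes changed 2-fold, 71.6% of 67 changed 4-fold and 92.4% of 66 changed 8-fold. It called 0.0577% of unchanged genes. The simulation changed a far smaller share of genes than was called in the real libraries, which makes the adjusted threshold stricter. Its shares are therefore not the sensitivity of this comparison, although 2-fold differences can still go uncalled. The comparison, its 29 gene lists and fixed genes were chosen with earlier results of these data known. Named genes are, per list, up to 4 called members of smallest p, the 2 of highest TPM and those at 0 counts in 1 line, the 12 largest ratios each way, the 10 highest TPM per line and fixed genes. Others were chosen after their values were seen to show exceptions. Positions come from GENCODE 29, promoter windows from RefSeq. Some genes are not reported here.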

Additional observations from a re-analysis of the deposited data

How the results depend on the processing

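Untreated calls numbered 7888, with 7272 to 8853 under other tools, scalings, filters or samples and 5288 to 7336 in fits lacking 1 library. With the replicate number as a block there were 7916, 4010 at 4-fold or more, 7783 in the lactate libraries and 0 for the interaction. Deviations of same-numbered untreated libraries correlated at -0.038. With 2 libraries per group this value cannot settle whether same-numbered libraries were handled together. The block and this check use the titles' numbers, and for PLC/PRF/5 the deposited tables carry 3 where the titles have 2. Calls at 4-fold or more ranged from 3631 to 4314 and from 3241 to 3930 without single libraries, and lactate calls from 7128 to 8345 and from 5212 to 7717. The interaction gave 4 calls by DESeq2 and 44 without the low-count filter, and 0 under the other settings run. Without scaling factors the median of all genes moved to 0.12 and 58.2% of calls were higher, against 50.5%. Under these settings 0 named genes called in either fit changed direction, and genes called in neither were not counted. With 1 library left in an arm, that library is assumed to vary like the other groups. Depth limits genes of a few counts, whose ratios have wide intervals.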

Other observations

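The median log2 fold change of protein-coding genes differed between chromosomes. It was 0.0 over 14737 genes and highest on chromosomes 21 (0.77, 144 genes), 15 (0.62, 477 genes), 8 (0.5, 497 genes), 3 (0.48, 801 genes) and 7 (0.43, 687 genes). On chromosome 21, 45.8% of genes were called higher and 11.1% lower in PLC/PRF/5, and on chromosome 15, 42.6% and 9.22%. The lowest medians were on chromosomes 4 (-0.36, 567 genes) and 11 (-0.29, 828 genes). In the lactate libraries the medians were 0.78 on chromosome 21, 0.69 on 15, 0.52 on 8, 0.48 on 3, 0.44 on 7, -0.35 on 4 and -0.2 on 11.

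Some protein-coding genes had at most 3 counts over the libraries of 1 of the lines while the other line and SNU475 each had a mean of at least 10 CPM. They were chosen by these values. In HLF there were 50 such genes, spread over 19 chromosomes with at most 5 on any of them, and 37 also had at most 3 counts in the HLF lactate libraries. They include ANPEP, DSP and CYBA, which encodes a subunit of the phagocyte oxidase (1 count in HLF, 430 and 454 CPM in PLC/PRF/5, 314 and 230 in SNU475). In PLC/PRF/5 there were 63, over 21 chromosomes with at most 7 on any of them, of which 47 also had at most 3 counts with lactate. They include S100A6 (0 counts in PLC/PRF/5, 352 and 238 CPM in HLF, 598 and 943 in SNU475), TNC, CAVIN3 and LTBR, the lymphotoxin receptor (2 counts in PLC/PRF/5, 314 and 211 CPM in HLF, 126 and 69.8 in SNU475).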
